A study of Homo sapiens with 6 samples.

Results

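The miR-146 and miR-155 miRNAs were examined in small RNA libraries of METTL1 knockdown cells before and after immunoprecipitation of N7-methylguanosine (m7G). The members were set by name as miRNAs known to respond to NF-κB, the transcription factor of inflammatory signaling, and were hsa-miR-146a-5p, hsa-miR-146b-5p, hsa-miR-146b-3p and hsa-miR-155-5p. All 4 were present among the 2588 mature miRNAs listed in both count tables. The cells were A549, an established lung adenocarcinoma cell line of human origin, in which doxycycline induces an shRNA against METTL1, a methyltransferase that places m7G in RNA. Both groups had received doxycycline at 200 ng/ml, and RNA was taken on day 5. One group was total RNA, which served as input (n = 3 libraries), and the other was RNA recovered with an anti-m7G antibody, termed m7G-RIP (n = 3 libraries). Which of the study's METTL1 shRNAs these libraries carried is not given in the labels. The growth text attached to the m7G-RIP samples names Caco-2 cells, a colorectal line, while their titles and cell line labels say A549. Neither METTL1-proficient cells nor an IgG control were analysed here, so every comparison is of antibody-recovered against total RNA within knockdown cells. Nothing in the labels says whether replicates were separate cultures, so p-values measure the spread between these libraries.

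A miRNA is cut from a hairpin precursor that yields 2 arms, named 5p and 3p, and the arm kept by an Argonaute protein pairs with target mRNAs through its seed, bases 2 to 8. In textbook accounts NF-κB induces miR-146a after Toll-like or interleukin receptor signaling, and miR-146a represses the adaptors IRAK1 and TRAF6, which closes a negative feedback loop. miR-146b carries the same seed. miR-155, made from the transcript MIR155HG, represses SOCS1 and INPP5D, which restrain immune signaling, and is best known from activated lymphocytes and macrophages.

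The mature sequences are shown first, because the miR-146 paralogs are told apart by bases near their 3′ end. They were taken from RefSeq (GRCh38.p14) and are written 5′ to 3′ with the seed in capitals.
hsa-miR-146a-5p: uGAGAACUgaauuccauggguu
hsa-miR-146b-5p: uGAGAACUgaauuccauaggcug
hsa-miR-146b-3p: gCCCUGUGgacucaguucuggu
hsa-miR-155-5p: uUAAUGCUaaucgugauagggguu

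miR-146a-5p and miR-146b-5p shared the seed GAGAACU and differed by G18A and U21C, counted from the 5′ end of miR-146a-5p, with lengths of 22 and 23 bases. A read that ends before base 18 fits both paralogs equally. How such reads were assigned, and how many there were, was not tested. miR-7153-5p was the other listed miRNA with this seed, and it had 0 counts in every library. No other listed miRNA with a sequence shared the seed of miR-146b-3p or of miR-155-5p.

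The hairpins of MIR146A and MIR146B are shown with both mature arms in capitals, since the comparison of the arms turns on them.
MIR146A: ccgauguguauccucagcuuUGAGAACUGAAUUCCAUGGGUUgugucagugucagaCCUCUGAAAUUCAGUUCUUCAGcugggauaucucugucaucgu
MIR146B: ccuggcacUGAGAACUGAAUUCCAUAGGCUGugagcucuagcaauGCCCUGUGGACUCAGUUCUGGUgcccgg

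In GRCh38, miR-146a-5p lies on the plus strand of chromosome 5 from 160485372 to 160485393, within an exon of the lncRNA MIR3142HG. miR-146b-5p lies on the plus strand of chromosome 10 from 102436520 to 102436542 and miR-146b-3p from 102436557 to 102436578 of the same hairpin. No annotated gene of that strand other than MIR146B contains either arm. miR-155-5p lies on the plus strand of chromosome 21 from 25573983 to 25574006, within an exon of MIR155HG. As m7G is a modified G, the G content of each was counted. miR-146a-5p and miR-146b-5p held 6 G each, miR-146b-3p and miR-155-5p held 7 each, and the longest runs of G were 3, 2, 2 and 4 bases in that order. G made up 27.3% of miR-146a-5p, 26.1% of miR-146b-5p, 31.8% of miR-146b-3p and 29.2% of miR-155-5p, around the median of 27.8% over the tested miRNAs with a sequence. Across those 557 miRNAs the log2 ratio of m7G-RIP over total RNA had a Pearson r of 0.41 with the G content, given as a description, since all points come from the same 6 libraries.

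The libraries differed in depth. Total RNA held from 9155690 to 10753443 counts per library and m7G-RIP from 2649238 to 3106556. Levels are given as CPM, counts brought to a common library total, after TMM, a scaling that assumes that most miRNAs do not differ between libraries. A count of 3 was taken as the floor of detection and equalled from 0.339 to 0.394 CPM in total RNA libraries and from 0.803 to 0.942 CPM in m7G-RIP libraries. Markers were checked against the labelled cell type. All 6 epithelial markers (the miR-200 family and miR-205-5p) had counts in total RNA, with a summed level of 528 to 560 CPM, though miR-141-3p had at most 6 counts in a library and miR-205-5p at most 3, and in m7G-RIP the sum was 217 to 283 CPM. Of 5 blood cell markers, miR-142-3p, miR-142-5p and miR-223-3p were at 0 in all 6 libraries, and the summed level was 0.113 to 0.475 CPM before and 0 to 1.57 CPM after immunoprecipitation. The muscle markers miR-1-3p, miR-133a-3p and miR-206 summed to 9.07 to 11.8 CPM in total RNA, against 0.535 to 117 CPM in m7G-RIP, with miR-1-3p at 260 and miR-133a-3p at 114 counts in m7G-RIP replicate 2. The gut markers miR-192-5p, miR-194-5p and miR-215-5p summed to 21592 to 22196 CPM in total RNA, against 2907 to 3181 CPM in m7G-RIP, the liver marker miR-122-5p was at 0, and the endothelial marker miR-126-3p was at 431 to 450 CPM in total RNA, against 223 to 304 CPM in m7G-RIP. The part of other cell types in the results was not tested.

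miR-146b-5p was the one member with ample reads. It had 1585, 1599 and 1254 counts in total RNA replicates 1, 2 and 3, and 394, 628 and 596 counts in m7G-RIP replicates 1, 2 and 3. On the CPM scale these were 179, 190 and 165 in total RNA and 116, 197 and 160 in m7G-RIP. Thus the highest and the lowest of the 6 levels were both m7G-RIP libraries, and the total RNA libraries lay between them. Its mean level put it at rank 119 of all listed miRNAs in total RNA and at rank 125 in m7G-RIP.

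miR-146a-5p, the best known NF-κB target of the family, was scarce. It had 33, 20 and 56 counts in total RNA (3.72, 2.38 and 7.36 CPM) and 2, 14 and 20 counts in m7G-RIP (0.589, 4.40 and 5.35 CPM). m7G-RIP replicate 1 was under the floor, and the other m7G-RIP libraries lay within the range of total RNA. The mean level in total RNA ranked 448, against 493 in m7G-RIP.

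miR-146b-3p, the opposite arm of the miR-146b hairpin, had 17, 19 and 64 counts in total RNA (1.92, 2.26 and 8.41 CPM). After m7G-RIP it had 0, 1 and 12 counts (0, 0.314 and 3.21 CPM). Both m7G-RIP replicates 1 and 2 were under the floor, while m7G-RIP replicate 3 was above 2 of the 3 total RNA libraries. At the mean total RNA level, 14.2, 13.4 and 15.7 counts would be expected in m7G-RIP replicates 1, 2 and 3.

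miR-155-5p had the lowest mean level of the members in both groups, although in m7G-RIP replicates 1 and 2 it had more counts than miR-146b-3p. It had 14, 7 and 17 counts in total RNA (1.58, 0.832 and 2.24 CPM) and 3, 7 and 0 counts in m7G-RIP (0.884, 2.20 and 0 CPM). The count of 0 in m7G-RIP replicate 3 allows a level of up to 0.803 CPM, a limit just under the level of total RNA replicate 2. At the mean total RNA level, 5.26, 4.93 and 5.79 counts would be expected in the m7G-RIP libraries.

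The mature members are of similar length, 22 to 24 bases, and were ordered by their read levels. How evenly the libraries captured different sequences was not tested, so this is an order of reads and not of molecules. In total RNA the order was miR-146b-5p at 178 ± 12.6 CPM, miR-146a-5p at 4.49 ± 2.58, miR-146b-3p at 4.20 ± 3.66 and miR-155-5p at 1.55 ± 0.702 (SD, n = 3). miR-146b-5p stood above the other members in every library. The libraries of the other 3 members overlapped between neighbours in the order. In m7G-RIP the means were 158 ± 40.6 CPM for miR-146b-5p, 3.45 ± 2.52 for miR-146a-5p, 1.18 ± 1.77 for miR-146b-3p and 1.03 ± 1.11 for miR-155-5p (SD, n = 3), with the same overlaps. The passenger strands miR-146a-3p and miR-155-3p had 0 counts in all 6 libraries. Both miR-146a-5p and miR-146b-3p were highest in replicate 3 of either group, as were 15.3% of all tested miRNAs.

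**Figure D1:**
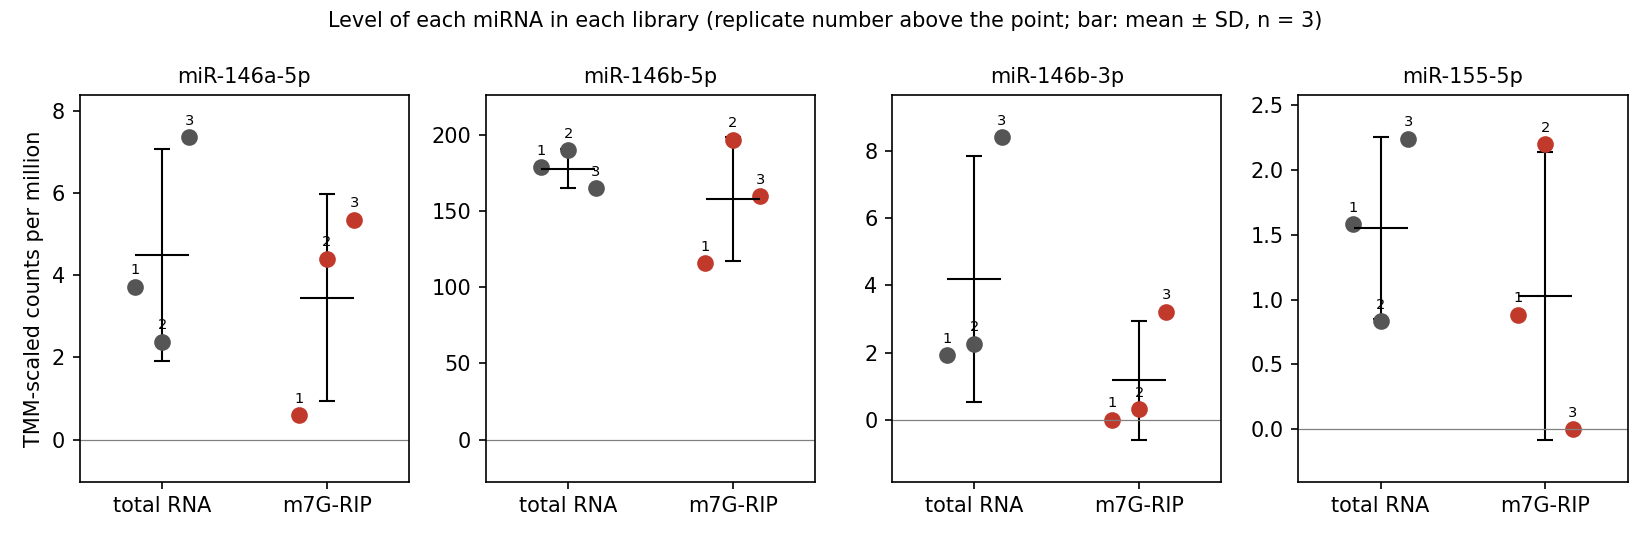
TMM-scaled CPM (y axis) of each member in each total RNA library (grey) and m7G-RIP library (red), 1 panel per miRNA with its own scale, the replicate number above each point and bars at the mean ± SD (n = 3). The groups overlap in every panel, and miR-146b-5p, at 116 to 197 CPM, is far above the others, which stay under 9 CPM.

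Whether the antibody recovered these miRNAs over input was asked by setting m7G-RIP against total RNA. None of the members that could be tested was called enriched or depleted. The counts of miR-146a-5p, miR-146b-5p and miR-146b-3p passed the default filter of edgeR on low counts and were tested in the fit over all 620 miRNAs that passed, and those of miR-155-5p did not. Of these 3 tested members, 0 had an edgeR adjusted p under 0.05, and 0 had an unadjusted p under 0.05. DESeq2, the edgeR likelihood ratio test and limma-voom called 0 of the 3 as well. Over all tested miRNAs 52.7% were called, 23.5% as enriched and 29.2% as depleted, a split that turned to 34.8% and 22.7% with library size alone in place of TMM. As TMM assumes that most miRNAs do not differ, a share of 52.7% leaves the zero of the log2 ratios dependent on the scaling. The libraries of the 2 groups overlapped for all 4 members, whereas they did not overlap for 66.0% of the tested miRNAs.

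miR-146b-5p had a log2 ratio of -0.18 (SE 0.21, 95% interval -0.65 to 0.30, edgeR adjusted p 0.505). It thus lay near the middle of the tested miRNAs, of which 48.4% had a lower log2 ratio and whose median was -0.07. Its sign depended on the scaling, at 0.37 (adjusted p 0.118) with library size alone, a setting that raised the tested miRNAs by a median of 0.55, so that miR-146b-5p was 0.11 below the median there and 0.10 below it with TMM. Pooled over libraries, its 1618 m7G-RIP reads against 4438 total RNA reads gave a ratio of 0.879 after scaling, with an exact 95% interval of 0.830 to 0.931. That interval covers counting error alone, and the spread between m7G-RIP replicates was wider. Without m7G-RIP replicate 2 the log2 ratio was -0.53 (edgeR adjusted p 0.0557), and without m7G-RIP replicate 3 it was -0.41. Those fits tested 778 and 756 miRNAs in place of 620, and the medians over them were -0.33 and -0.40. miR-146b-5p was 0.20 and 0.01 below these medians. The miRNAs shared with the reported fit moved by medians of -0.18 and -0.23, so part of the fall in the medians came with the added miRNAs.

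miR-146a-5p had a log2 ratio of -0.38 (SE 0.91, 95% interval -2.44 to 1.69, edgeR adjusted p 0.742). The interval reaches far to both sides of 0, so neither a moderate enrichment nor a moderate depletion was detectable with these libraries. The sign turned with library size alone (0.15), without the 10 most abundant miRNAs among the library sizes (0.04) and (0.06) without total RNA replicate 3, the library with 56 counts. Pooled over libraries, miR-146a-5p had a ratio of 0.797 after scaling, with an exact 95% interval from counting error alone of 0.531 to 1.17. Its paralog miR-146b-5p, with the same seed, was measured far more precisely (SE 0.21).

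miR-146b-3p had the lowest log2 ratio of the members tested, -1.79 (SE 1.27, 95% interval -4.67 to 1.10, edgeR adjusted p 0.266). Its SE was larger than that of 93.4% of the tested miRNAs. m7G-RIP replicate 3 held 12 of the 13 m7G-RIP reads, and total RNA replicate 3 held 64 of the 100 total RNA reads. Pooled over libraries, these reads gave a ratio of 0.314 after scaling, the lowest of the members. Its exact 95% interval was 0.161 to 0.561, which covers counting error alone and not this spread between replicates. Without m7G-RIP replicate 3 the log2 ratio was -4.83 and the edgeR adjusted p was 0.0329. That is a fitted value against counts of 0 and 1 and no measure of the fold. In the other alternatives the adjusted p ran from 0.157 (limma-voom) to 0.425 (edgeR with library size alone).

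miR-155-5p had no value in the fit with the default filter, which it did not pass. With no filter on low counts it was fitted at a log2 ratio of -0.86 (adjusted p 0.709 by edgeR). Its 10 m7G-RIP reads against 38 total RNA reads gave a pooled ratio of 0.635, with an exact 95% interval from counting error alone of 0.282 to 1.30.

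**Figure D2:**
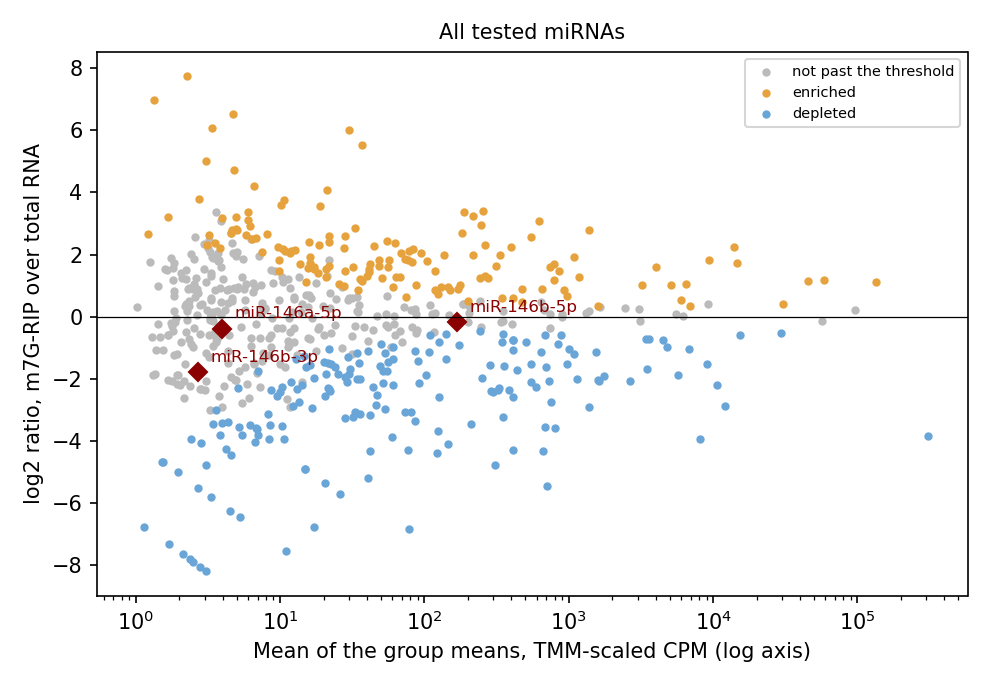
log2 ratio of m7G-RIP over total RNA (y axis) against the mean of both group means in CPM (x axis, log scale) for the 620 tested miRNAs, colored by call at an edgeR adjusted p under 0.05. The tested members (dark diamonds) sit among the miRNAs without a call (grey), with miR-146b-5p close to the zero line.

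The members were next compared with each other inside each library, where both counts share the same depth and no scaling between libraries enters. The log2 ratio of miR-146b-5p over miR-146b-3p reads, with 0.5 counts added to each, was 6.50, 6.36 and 4.28 in total RNA. In m7G-RIP it was 9.62, 8.71 and 5.58. m7G-RIP replicates 1 and 2 lay above all total RNA libraries and replicate 3 lay among them. The difference of the means was 2.26 toward the 5p arm in m7G-RIP (exact two-sided permutation p = 0.3, adjusted over 3 ratios 0.7). It was 1.43 without m7G-RIP replicate 1 and 3.45 without m7G-RIP replicate 3. With 3 against 3 libraries the smallest p possible is 0.1, so this design cannot reach 0.05.

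The log2 ratio of the paralogs, miR-146a-5p over miR-146b-5p, was -5.56, -6.29 and -4.47 in total RNA and -7.30, -5.44 and -4.86 in m7G-RIP. The difference of the means was -0.43 (exact permutation p = 0.7, adjusted 0.7), and the groups overlapped. For miR-155-5p over miR-146b-5p the values were -6.77, -7.74 and -6.16 in total RNA and -6.82, -6.39 and -10.22 in m7G-RIP, the last from the library without a miR-155-5p read. The difference was -0.92 (exact permutation p = 0.6, adjusted 0.7), and without that library it was 0.29. With 2 counts added in place of 0.5, the 3 differences shrank to 1.29, -0.19 and -0.17. A change in the proportions of these miRNAs was therefore not shown for any of the 3 ratios.

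**Figure D3:**
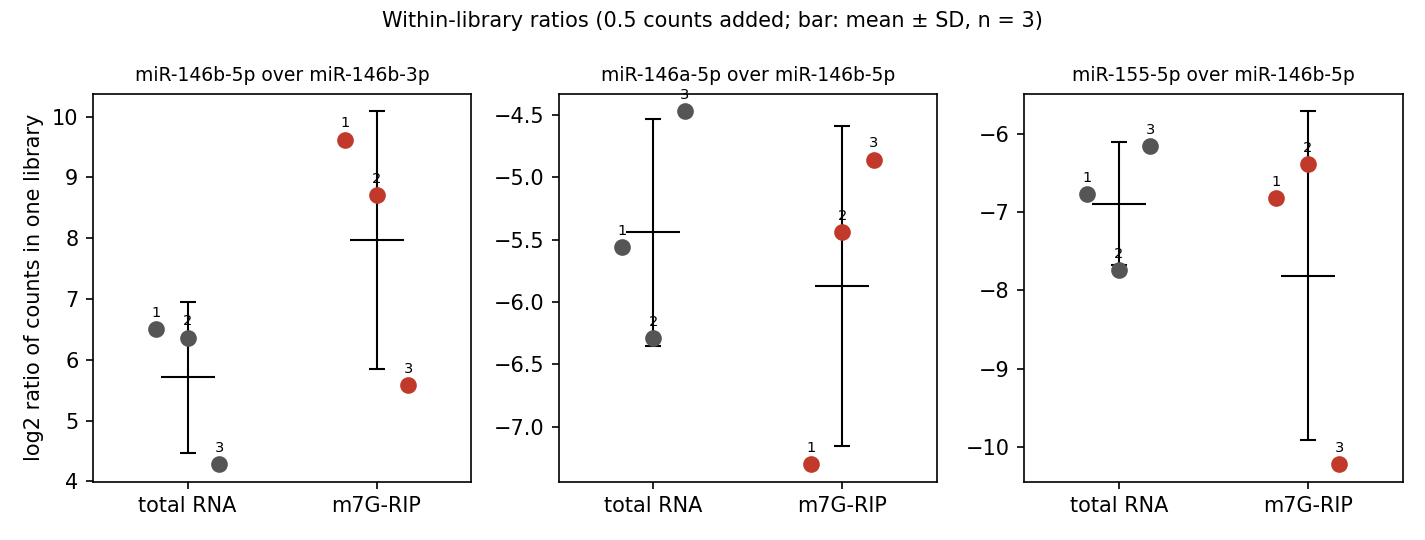
log2 ratio of the counts of the named miRNAs within each library (y axis, 0.5 counts added) for total RNA (grey) and m7G-RIP (red), with the replicate number above each point and bars at the mean ± SD (n = 3). The groups overlap in all 3 panels, and the arm ratio of miR-146b is 5.71 ± 1.24 in total RNA and 7.97 ± 2.12 in m7G-RIP.

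Other miRNAs linked to inflammatory signaling were read beside the members from a list of 14. Of these, 10 were tested, 6 were depleted and 0 were enriched (edgeR adjusted p under 0.05), and 0 with a positive log2 ratio had an unadjusted p under 0.05. Over all tested miRNAs 52.7% were called in either direction and 29.2% were depleted. The 6 of 10 in the list were thus near the share called in either direction but above the share depleted. The median log2 ratio of the tested list was -1.27, against -0.07 over all tested miRNAs. Its median SE was 0.15, against 0.47 over all tested miRNAs, so a call was easier to reach in the list. The list was chosen with earlier results of these data known and was not tested as a set. Nothing particular to it is therefore read from the 6 calls or from these medians.

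The depleted miRNAs included miR-21-5p, a general growth-promoting miRNA, which fell from 574830 ± 33598 to 40653 ± 2866 CPM (SD, n = 3; log2 ratio -3.82, edgeR adjusted p 3.15e-08). miR-9-5p, which targets NFKB1, fell from 545 ± 59.1 to 112 ± 18.2 CPM (SD, n = 3; log2 ratio -2.28, edgeR adjusted p 5.16e-06). miR-181b-5p, which limits nuclear import of NF-κB, had a log2 ratio of -1.60 (adjusted p 2.70e-06 by edgeR). miR-221-3p, which represses CDKN1B, had one of -1.90 (adjusted p 2.75e-06 by edgeR). For each of these 4 depleted miRNAs every m7G-RIP library lay below every total RNA library. The same held in the list for miR-125b-5p, miR-147b, let-7i-5p (not called) and miR-301a-3p (not tested). Over all tested miRNAs the groups did not overlap for 66.0%, in either direction.

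miR-125b-5p, which targets TNF, was depleted at a log2 ratio of -0.73 (adjusted p 0.00108 by edgeR), and this call was lost with library size alone (-0.18, adjusted p 0.160). miR-147b, a miRNA induced by Toll-like receptors, had 263, 252 and 220 counts in total RNA and 64, 32 and 52 in m7G-RIP (log2 ratio -1.05, edgeR adjusted p 0.0251). The call of miR-147b was lost without total RNA replicate 1 (adjusted p 0.0876), replicate 2 (0.0942) or replicate 3 (0.0682), with library size alone (0.270), when library sizes left out the 10 most abundant miRNAs (0.193) and with the replicate number as a block (0.0529).

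The 4 tested members of the list without a call were let-7i-5p, miR-132-3p, miR-187-3p and miR-212-3p. let-7i-5p, which targets TLR4, had a log2 ratio of -0.13 (adjusted p 0.238 by edgeR). It passed as depleted without m7G-RIP replicate 1 (-0.30), 2 (-0.34) or 3 (-0.36) and with no filter on low counts (-0.41), but as enriched with library size alone (0.42). Against the reported fit, these settings moved the shared miRNAs by medians of -0.14, -0.18, -0.23, -0.28 and 0.55, in that order. miR-132-3p and miR-212-3p come from 1 locus and share a seed. miR-132-3p was at -0.43 on the log2 scale (adjusted p 0.129 by edgeR). It passed as depleted with no filter on low counts (-0.71, adjusted p 0.0172) and without m7G-RIP replicate 3 (-0.73, adjusted p 0.041), and its sign turned with library size alone (0.13) and when library sizes left out the 10 most abundant miRNAs (0.03). miR-212-3p averaged 2.43 ± 0.362 CPM in total RNA, against 5.68 ± 1.21 CPM in m7G-RIP (SD, n = 3). Its groups did not overlap, and its log2 ratio was 1.21 (adjusted p 0.169 by edgeR). It passed the threshold only when at least 10 counts in every library were required (adjusted p 0.0239). miR-187-3p had 44, 72 and 44 counts in total RNA and 20, 3 and 0 in m7G-RIP, and its log2 ratio was -1.50 (adjusted p 0.303 by edgeR). Without m7G-RIP replicate 1 its log2 ratio was -4.01 (adjusted p 0.0237). Of the 4 that were not tested, miR-146a-3p, miR-155-3p and miR-223-3p were at 0 throughout, and miR-301a-3p had 9, 7 and 7 counts in total RNA and 0 in each m7G-RIP library.

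**Figure D4:**
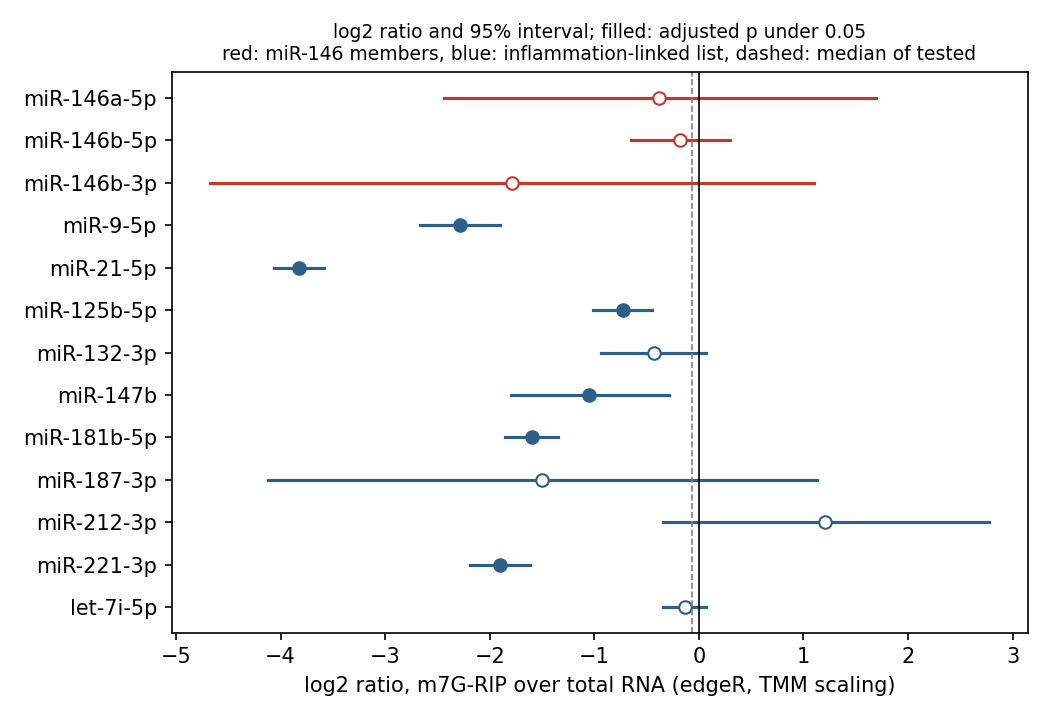
log2 ratio of m7G-RIP over total RNA (x axis) with its 95% interval for the 3 tested members (red) and the 10 tested miRNAs of the inflammation-linked list (blue), filled where the edgeR adjusted p was under 0.05. The members' intervals all span 0, and 6 of the blue points are filled and lie at -0.73 or lower. Of all tested miRNAs 52.7% were called, and 29.2% were called as depleted.

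The miRNAs whose pattern over the 6 libraries was nearest to each tested member were found from the root mean square difference in centred log2 CPM. For miR-146b-5p they were miR-421, miR-500a-3p and miR-1260b, at 0.09, 0.15 and 0.16, where the median over the tested miRNAs was 1.01. Their log2 ratios were -0.31, -0.31 and -0.17, and none was called (edgeR adjusted p 0.359, 0.256 and 0.616). Ratios close to that of miR-146b-5p are built into this choice, since the distance spans both groups. For miR-146a-5p they were miR-1299, miR-4796-3p and miR-501-5p at 0.40, 0.46 and 0.48, against a median of 1.34. For miR-146b-3p they were miR-377-5p, miR-933 and miR-3148 at 0.56, 0.67 and 0.68, against a median of 1.69. The closest matches of the scarcer members lay further off, but so did the median of the tested miRNAs, so tightness is not compared between members.

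**Figure D5:**
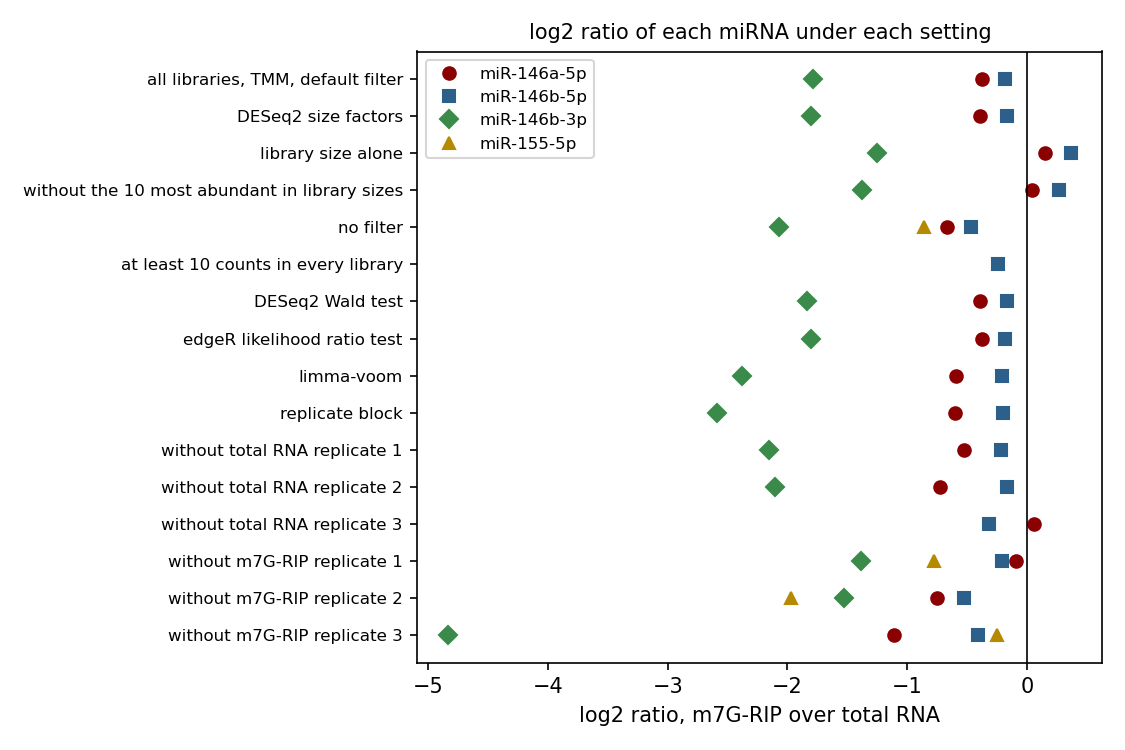
log2 ratio of m7G-RIP over total RNA (x axis) of each member under each processing setting (rows), with 1 marker shape per miRNA and no marker where the filter removed it. miR-146b-5p stays between -0.53 and 0.37 and miR-146a-5p between -1.11 and 0.15, while miR-146b-3p ranges from -4.83 to -1.25.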

How the data were processed

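For 3 total RNA and 3 m7G-RIP libraries, made with the NEBNext small RNA kit, the deposited values are raw read counts of each mature miRNA. Per the authors' methods, adaptors were trimmed with Trimmomatic, STAR placed reads end to end on GRCh38 (up to 10 loci), and miRBase mature miRNAs were counted with featureCounts. The submitters' processing notes list Bowtie2 in place of STAR. Counting of reads over several loci is not given in the sources used here.

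Groups came from the sample titles. The test was that of edgeR 4.0.16 under R 4.3.3 (default filter, TMM, robust quasi-likelihood F test, no block, Benjamini-Hochberg over 620 miRNAs, threshold 0.05). limma 3.58.1 and DESeq2 1.42.0 were alternatives, and the code was tested on simulated data. Ratios within libraries used exact two-sided permutation tests. Pooled ratios used exact binomial intervals. Reads carry no molecular identifiers, so counting intervals and floors cover counting error only. Between replicates, chi-square per degree of freedom was 22.2 to 112, above counting noise, so the tests kept all libraries separate. Only the pooled ratios summed reads over the libraries of a group, and their intervals leave out this spread.

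The members and lists were chosen with earlier results of these data known. Named miRNAs were the members, 14 inflammation-linked miRNAs, seed sharers, cell type markers and the 3 nearest patterns of each tested member (log2 CPM, prior count 2). Mature sequences were found for 2281 of 2588 names, 89.8% of those tested, and genomic positions were read against GENCODE release 44.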

Additional observations from a re-analysis of the deposited data

How the results depend on the processing

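Over 16 alternatives, from 98 to 216 of all miRNAs were enriched and from 133 to 245 depleted, each within 1.5 times the reported count. No member was enriched in any alternative (0), and 0 to 1 was depleted in fits lacking 1 library. That 1 was miR-146b-3p without m7G-RIP replicate 3, and over those fits its log2 ratio ran from -4.83 to -1.39. miR-146a-5p changed sign with library size alone (0.15) and with library sizes that left out the 10 most abundant miRNAs (0.04), and ran from -1.11 to 0.06 without a library. miR-146b-5p changed sign in the same 2 scalings (0.37 and 0.27), which raised the tested miRNAs by medians of 0.55 and 0.45, and ran from -0.53 to -0.17 without a library. The ratio of miR-146a-5p to miR-146b-5p ran from -0.93 to 0.29 without a library, that of miR-155-5p to miR-146b-5p from -1.63 to 0.29, and that of miR-146b-5p to miR-146b-3p from 1.43 to 3.45. From 4 to 8 miRNAs of the inflammation-linked list were depleted. The number enriched was 1 with library size alone, 1 with library sizes that left out the 10 most abundant (let-7i-5p in both, at 0.42 and 0.32) and 1 where every library had to hold at least 10 counts (miR-212-3p). The causes were not tested. miR-155-5p had a value with no filter and without any 1 m7G-RIP library, from -1.97 to -0.25, and no call in these. With at least 10 counts in every library, of the members only miR-146b-5p had a value, and without total RNA replicate 3 miR-146b-3p had none.

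The libraries were not treated as paired by replicate number, as same-numbered libraries deviated from their group means with correlations of -0.0433, -0.101 and 0.0641. With the replicate block, 122 miRNAs were enriched and 175 depleted, 0 members were called, and the list had 5 depleted. The members' log2 ratios were then -0.60 for miR-146a-5p, -0.20 for miR-146b-5p and -2.59 for miR-146b-3p. The paired differences of the within-library ratios were 2.26 (exact sign-flip p = 0.25, the smallest possible), -0.43 and -0.92. miR-146a-5p, miR-146b-3p and miR-155-5p had at most 20 counts in any m7G-RIP library, and their total RNA counts also varied, for miR-146b-3p from 17 to 64. How much of their error came from depth was not tested.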
